A study of Mus musculus with 6 samples.

Results

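Polyadenylated RNA of BaF3 cells carrying the intracellular domain of Notch1 was set against that of cells carrying a fluorescent protein alone. BaF3 is a mouse cell line that depends on interleukin-3. Its cell type label reads as a pro-B line and also as a chronic lymphocytic leukaemia line. The con group received the plasmid pmax-Clover, which encodes the green fluorescent protein Clover, and the ICN group received pmax-Clover-ICN. Cells of both groups were kept in RPMI medium with 10% serum and 2 ng/mL mouse interleukin-3, nucleofected and sorted 24 h later. Which gate was used in the sort, and from which species the insert came, the labels do not say. Each group had 2 libraries, numbered 1 and 2, so the comparison used 4 of the 6 libraries of the study. The other 2 carried the plasmid pmax-Clover-CTdel, a further ICN construct, and they entered the model only for its estimate of spread and for a contrast of ICN with CTdel. Nothing in the labels says that the libraries of a group came from separate nucleofections, so p-values measure only the spread between these libraries, which may be technical. The libraries numbered 1 were deposited in one table and those numbered 2 in another, and the difference between ICN and con was taken within each table as log2(FPKM + 1), where FPKM is fragments per kilobase of transcript scaled to the size of the library. Replicate 1 and replicate 2 stand for these within-table pairs. Differences on this scale understate the fold of low genes.

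Notch1 is a receptor on the cell surface. On binding a ligand it is cut, and its intracellular domain enters the nucleus, where it joins the DNA-binding protein RBPJ and a Mastermind coactivator and switches on target genes such as those of the Hes and Hey families. A plasmid that encodes the intracellular domain alone bypasses the ligand and the cut. In lymphoid progenitors this signal favours the T lineage over the B lineage. Interferon-stimulated genes and NF-kB targets are known for responding to viral and bacterial products and to foreign nucleic acid in the cytosol.

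Of the 16799 genes in both replicates, 11050 reached an FPKM of 1 in at least 2 of the 6 libraries and were tested. FPKM summed to 489693 to 507894 per library. Read totals are unknown, and the relative depth, read from the lowest values of short RNA genes, was 0.963 to 1.08 times that of con 1. The count of genes above 0 was 14951 and 14981 in the con libraries and 16413 and 16946 in the ICN libraries. Of the markers of the labelled cell type, Vpreb1, Igll1, Ebf1 and Rag1 stayed under an FPKM of 1 in each of the 6 libraries, and only 5 of 20 B-lineage genes were tested. The receptor genes for interleukin-3 were present, Csf2rb at 273 and 170 in con, against 289 and 297 in ICN, and Il3ra at 30.0 and 23.7, against 19.0 and 35.1. In the ICN libraries Cd79b, a signalling chain of the B cell receptor, stood at 6.36 and 4.34, against 3.62 and 4.32 in con. Cd79a, the other such chain, stood at 1.35 and 2.08 in ICN, against 0 and 0.79 in con. Of the 5 tested B-lineage genes 3 were higher in ICN in both replicates and 1 was lower in both (29.8% and 26.7% of all tested genes). Of 16 stromal and epithelial markers 1 was tested, the platelet and endothelial adhesion gene Pecam1.

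The pair of replicates agreed on part of the response and parted on the rest. In replicate 1, 471 genes were at least 2-fold higher in ICN (a difference of at least 1), or 4.26% of those tested, and 208 were at least 2-fold lower (1.88%). In replicate 2 the counts were 1257 higher (11.4%) and 696 lower (6.3%). Both replicates held 256 of the higher genes (2.32%), which is 54.4% of those of replicate 1 and 20.4% of those of replicate 2. For the lower genes the overlap was 34 (0.308%), 16.3% of replicate 1 and 4.89% of replicate 2. Across genes, which are not independent replicates, the 2 replicates' differences had a Pearson r of 0.346 and a Spearman rho of 0.246. Moving in 1 table with a difference under 0.5 in the other was more common in replicate 2 than in replicate 1: 684 genes were higher (6.19%) and 529 lower (4.79%) in replicate 2 only, against 102 higher (0.923%) and 85 lower (0.769%) in replicate 1 only. In opposite directions in the 2 replicates went 53 genes, 14 of them higher in replicate 1 (0.127%) and 39 higher in replicate 2 (0.353%). The libraries of a group also differed among themselves. Between the con libraries 486 genes were at least 2-fold higher in con 1 (4.4%) and 235 in con 2 (2.13%), and between the ICN libraries 321 were higher in ICN 1 (2.9%) and 455 in ICN 2 (4.12%).

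**Figure D1:**
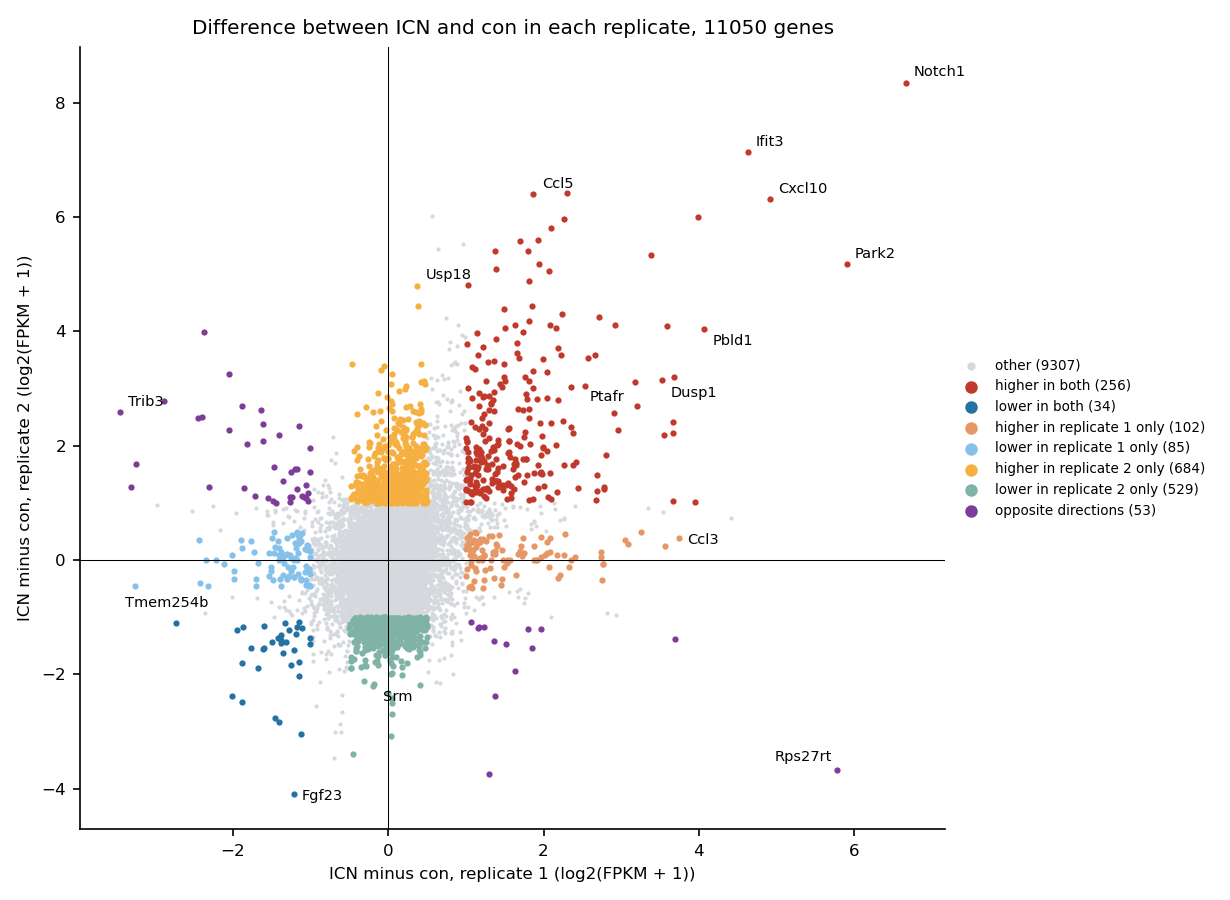
Each point is 1 of the 11050 tested genes, placed by its difference between ICN and con in replicate 1 (x axis) and in replicate 2 (y axis), both on the log2(FPKM + 1) scale, and coloured by class with the count in brackets. The 256 genes higher in both replicates fill the upper right, and the vertical band of genes moved in replicate 2 only is fuller than the horizontal band for replicate 1.

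A model over all 6 libraries, with the table as a term, called 4 genes at a Benjamini-Hochberg adjusted p under 0.05 (limma), all higher in ICN (0.0362% of genes tested), and 0 lower (0%), where 1107 higher and 556 lower genes had an unadjusted p under 0.05. The count turns on the libraries fitted, and con and ICN alone leave 1 residual degree of freedom. With the con and ICN libraries alone the same model called 150 higher and 12 lower, without ICN 1 it called 946 and 524, without ICN 2 129 and 18, without con 1 35 and 4, and without con 2 11 and 0.

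Notch1 itself, the transfected gene, was read at an FPKM of 0.89 in con 1 and 1.72 in con 2 and at 190 in ICN 1 and 888 in ICN 2. Both ICN libraries stood above both con libraries, and the second held the more Notch1 RNA. In CTdel 1 and CTdel 2 Notch1 stood at 84.9 and 25.4, below both ICN libraries and in the other order. Contrasts of ICN with CTdel thus also set unlike amounts of Notch1 RNA side by side, and what part this plays was not tested. The endogenous gene lies on chromosome 2 from 26457902 to 26503822 (mm10), and reads from it and from the plasmid cannot be told apart in a value per gene. Its change of 7.51 ± 0.84 (log2 scale, SE, n = 2 libraries per group) did not pass (limma, adjusted p = 0.103), but passed with the con and ICN libraries alone (adjusted p = 1.8e-05). That smaller fit leaves 1 residual degree of freedom, so its spread is largely taken from other genes.

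The gene with the largest change among the 4 called was Park2, which encodes the ubiquitin ligase parkin of mitochondrial quality control. Its FPKM was 0.65 and 0.62 in con, against 97.5 and 57.4 in ICN, and the spread between replicates was small beside that gap. The change was 5.54 ± 0.30 on the log2 scale (limma, SE, n = 2 per group, adjusted p = 0.013). The gene spans chromosome 17 from 10840359 to 12063370 (mm10). Pbld1, a gene for a phenazine-biosynthesis-like protein on chromosome 10 (63060625 to 63077964), rose from 0.31 and 0.45 in con to 21.0 and 23 in ICN. Dusp1, a phosphatase that switches off MAP kinases (chromosome 17, 26505591 to 26508472), rose from 4.44 and 2.43 to 61.6 and 29.3. Ptafr, the receptor for platelet-activating factor (chromosome 4, 132564067 to 132582683), rose from 0.95 and 1.35 to 16.7 and 19.3. The changes of Pbld1, Dusp1 and Ptafr were 4.06 ± 0.25, 3.33 ± 0.21 and 3.15 ± 0.19 (limma, adjusted p = 0.013 each). With no filter on low values none of the 4 passed (adjusted p 0.0808 to 0.137), with a pseudocount of 0.1 Park2 and Pbld1 missed the threshold (0.0502 each), and without the table term Dusp1 did (0.0821).

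Park2 and Pbld1 parted from Dusp1 and Ptafr in the CTdel libraries. Park2 stood at 1.51 and 0.22 and Pbld1 at 0.55 and 0.20 in CTdel, close to con, and ICN exceeded CTdel by 5.44 for Park2 and 4.07 for Pbld1 (limma, log2 scale, adjusted p = 0.024 each). Dusp1 stood at 119 and 64.9 and Ptafr at 18.3 and 23.1 in CTdel, and their ICN minus CTdel differences of -1.03 and -0.19 did not pass (adjusted p = 0.386 and 0.815). Over all tested genes ICN and CTdel differed at 2 (0.0181%), these same ones. Neither call held with a pseudocount of 0.1 or with no filter on low values, and with ICN 1 left out 64 of the 195 genes named by rule differed.

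The named genes higher in both replicates included chemokine and interferon-stimulated genes. Cxcl10, a chemokine that draws activated lymphocytes, had an FPKM of 2.55 and 0.76 in con, against 106 and 139 in ICN. Ifit3, an interferon-stimulated antiviral protein, had 0.72 and 0.36 in con, against 41.5 and 190 in ICN. Its neighbour Ifit3b had 0.13 and 0.06 in con, against 10.8 and 42.0 in ICN. For each of these 3 genes both ICN libraries lay above both con libraries. Gzmb, the granule protease of cytotoxic cells, was already present in con at 34.2 and 28.9 and stood at 556 and 1905 in ICN. Acod1, the enzyme that makes itaconate in activated macrophages, had 1.02 and 0.11 in con, against 24.8 and 9.26 in ICN. Ccrl2, an atypical chemoattractant receptor, had 4.01 and 1.76 in con, against 31.9 and 51.5 in ICN. None of these 6 passed the model over all libraries, with adjusted p of 0.074 (Gzmb) to 0.153 (Acod1).

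The rest of the named higher set was mixed in function. Krt16, a keratin of stressed epithelium, went from 0.03 in each con library to 11.5 and 16.7. Slc26a11, an anion transporter, stood at 0.08 and 0.16 in con, against 7.15 and 19.1 in ICN, and Hist1h4m, a gene for histone H4, at 0 and 1.21 in con, against 8.21 and 13.4 in ICN. Of the 256 genes, 78 were under an FPKM of 1 in both con libraries and 128 reached at least 10 in both ICN libraries, and 214 are protein-coding in RefSeq. The difference was larger in replicate 2 for 183 of the 256. In that table the ICN library also held more Notch1 RNA, and con 2 was lower than con 1 for 172 of the 256. What part either plays was not tested. Near the threshold, Ptk2b and St7 were just inside with a difference of 1 in replicate 1, and Gla was just outside with 0.998 in replicate 1 and 1.93 in replicate 2.

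**Figure D2:**
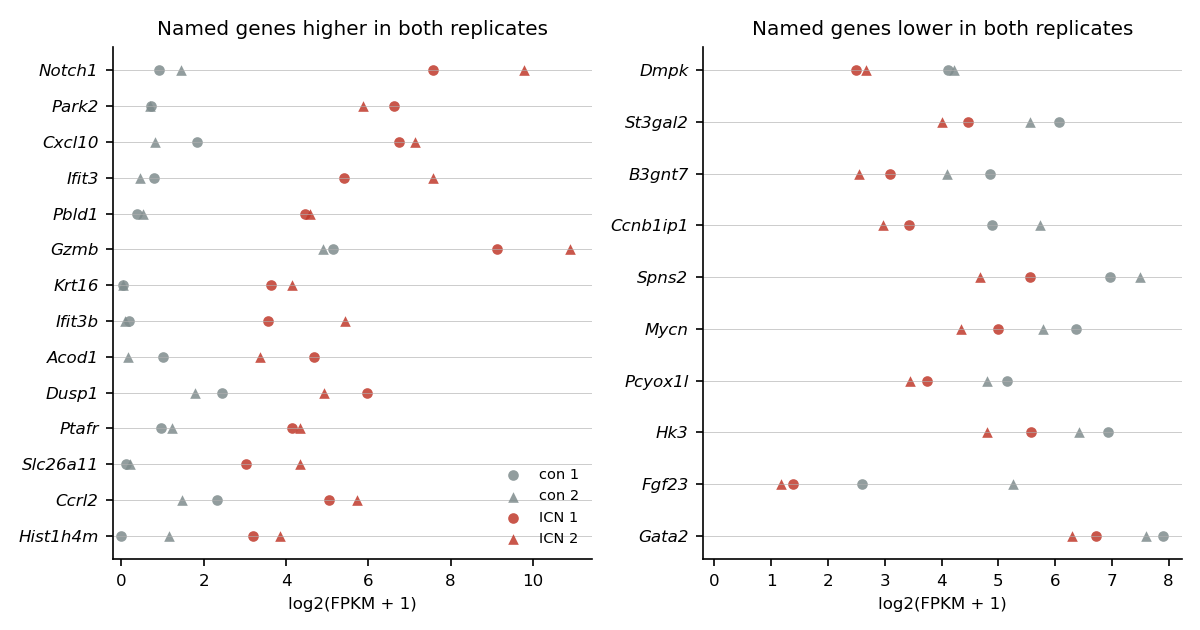
Level of each named gene in the con (grey) and ICN (red) libraries, with circles for replicate 1 and triangles for replicate 2, on the log2(FPKM + 1) scale. In the left panel every ICN point lies to the right of both con points, and in the right panel every ICN point lies to the left of both, as the choice of these genes fixes within each replicate.

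The genes lower in both replicates were fewer, and their differences smaller. Of the 34, 19 are protein-coding and 13 are small structured RNAs in RefSeq. MicroRNA and small nucleolar RNA symbols were passed over in choosing the genes named here. Dmpk, a kinase mutated by repeat expansion in myotonic dystrophy, had an FPKM of 16.3 and 17.7 in con, against 4.65 and 5.35 in ICN. St3gal2 and B3gnt7, enzymes that extend sugar chains, went from 65.9 and 46.0 to 21.0 and 15.1, and from 27.8 and 16.1 to 7.49 and 4.87. Ccnb1ip1 and Spns2, a ubiquitin ligase and the exporter of sphingosine 1-phosphate, differed by -1.46 and -1.4 in replicate 1 and by -2.77 and -2.82 in replicate 2. Both ICN libraries lay below both con libraries in each of these genes.

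The other named lower genes had mixed functions. Gata2, a transcription factor of stem cells and mast cells, had 238 and 192 in con, against 104 and 78.0 in ICN. Mycn, a MYC family factor, had 81.9 and 54.4 in con, against 31.0 and 19.3 in ICN. Hk3, a hexokinase of myeloid cells, had 121 and 85.1 in con, against 46.9 and 26.8 in ICN, and Pcyox1l had 34.6 and 26.9 in con, against 12.4 and 9.87 in ICN. Fgf23, a phosphate-regulating hormone, was uneven in con, at 5.07 and 37.2, and stood at 1.61 and 1.25 in ICN. None passed the model (limma, adjusted p from 0.103 for Dmpk to 0.216 for Fgf23), so these differences are a description of 2 pairs of libraries.

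To see which functions agreed, 32 lists of genes were described by the median difference of their tested members in each replicate, beside medians of 0.02 and 0.02 over all tested genes. Member counts are to be read beside the shares over all tested genes. These were 29.8% above 0 and 26.7% below 0 in both replicates, and 2.32% 2-fold higher and 0.308% 2-fold lower in both. In replicate 1 only they were 0.923% higher and 0.769% lower, and in replicate 2 only 6.19% and 4.79%. Of the lists with at least 5 tested members, those with medians of at least 0.5 in both replicates were the interferon response, NF-kB, AP-1 and immediate-early genes, replication-dependent histones, and the cytotoxic and NK genes (5 tested, medians 1.28 and 1.81). Lysosome genes (0.49 and 1.12), myeloid genes (0.82 and 0.45), chemokines and cytokines (1.24 and 0.44) and integrins and homing receptors (0.60 and 0.39) had 1 median under 0.5. So had the Notch targets (10 tested, 0.71 and 0.29), the p53 response (0.26 and 2.03) and MHC class I genes (0.32 and 1.73). The erythroid and megakaryocyte list lay at -0.70 and -0.98. Lists with medians of opposite sign included DNA replication and heat shock proteins.

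**Figure D3:**
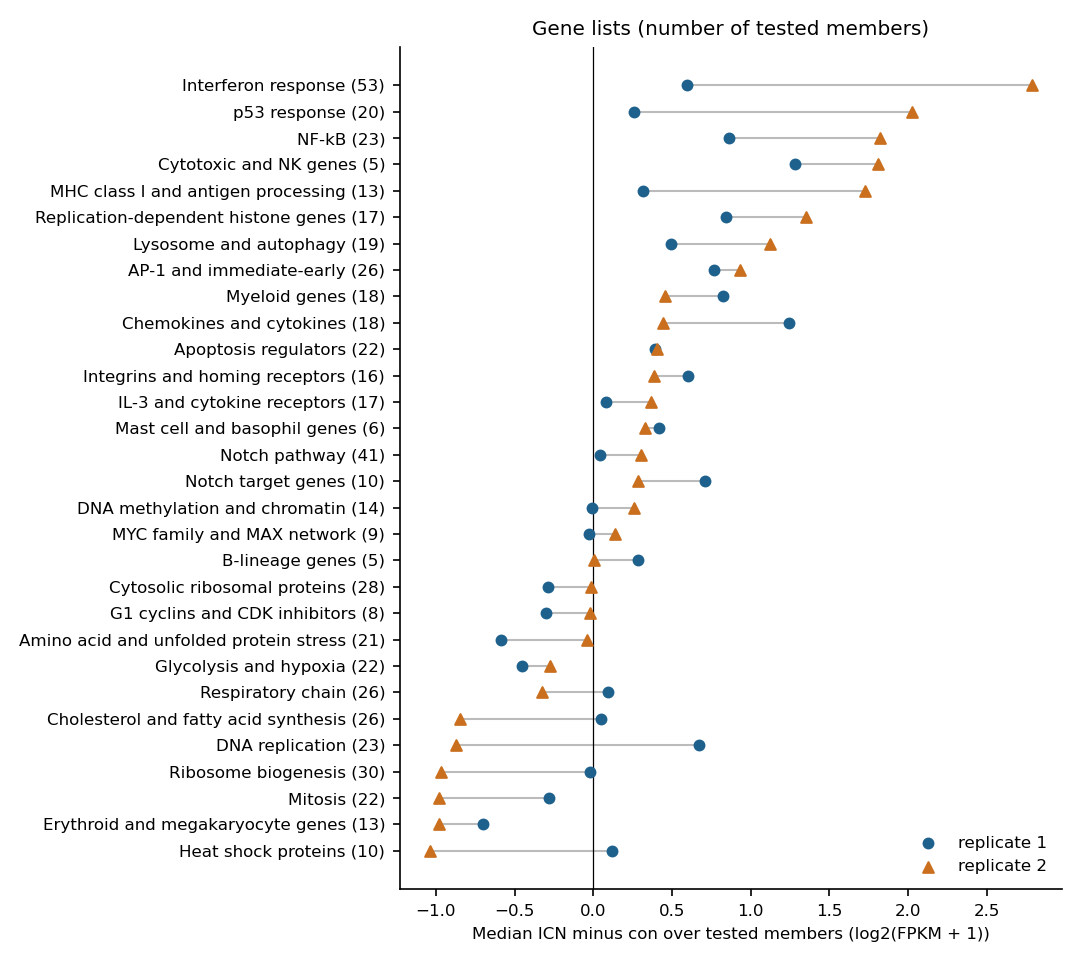
Median difference between ICN and con over the tested members of each gene list, in replicate 1 (blue circles) and replicate 2 (orange triangles), on the log2(FPKM + 1) scale, for lists with at least 5 tested members (number in brackets). The interferon list has the largest gap to the right, from 0.60 to 2.79, and the DNA replication list crosses 0, from 0.67 to -0.88.

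The interferon list had 53 tested members, of which 48 were above 0 in both replicates (against 29.8% of all tested genes) and 2 below 0 in both (26.7% of all). At least 2-fold higher in both were 16, and 18 were so in replicate 2 only. The median difference was 0.60 in replicate 1 and 2.79 in replicate 2. The median member stood at an FPKM of 21.4 in con 1 and 33.1 in ICN 1, and at 11.1 in con 2 and 82.3 in ICN 2. Thus con 2 was the lowest of the 4 libraries and ICN 2 the highest, and in 48 of 53 members both ICN libraries were above both con libraries (22.7% of all tested genes).

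By role, most of the members at least 2-fold higher in both replicates were antiviral effectors and interferon-inducible GTPases. Of 24 effectors 11 were at least 2-fold higher in both replicates and 10 in replicate 2 only, with medians of 0.70 and 2.95. Of 9 GTPases, which attack the membranes around intracellular pathogens, 4 were higher in both, with medians of 0.91 and 3.08. Among 8 sensors of foreign nucleic acid 1 was higher in both, with medians of 0.75 and 2.65, and among 8 transcription factors of the pathway none was, with 4 in replicate 2 only. Of the interferons and their receptors 4 were tested, with medians of 0.05 and 0.85. The interferon genes Ifnb1, Ifna4 and Ifng were too low to be tested. Ifnb1 stood at 0 in both con libraries, against 1.55 and 0.51 in ICN, and Ifna4 at 0 and 0.08 in con, against 0.63 and 0.78. Ifng, with values in replicate 2 only, stood at 0.04 in con and 0 in ICN. No member passed the model (limma, lowest adjusted p 0.103). The members below 0 in both replicates were Mavs, the adaptor of the RNA sensors, with differences of -0.36 and -0.60, and Irf3, which switches on interferon genes, with -0.66 and -0.55. Mavs and Irf3 were named after their values were seen.

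Examples show how the 2 replicates differ in size. Ifit2 had an FPKM of 6.91 and 7.10 in con, against 39.4 and 65.5 in ICN, so that its 2 con libraries were alike and the differences, 2.35 and 3.04, close. Samhd1, which depletes the nucleotides that viruses copy from, had 44.3 and 35.2 in con, against 193 and 189 in ICN. Oasl1, a brake on interferon production, had 79.8 and 25.2 in con, against 338 and 875 in ICN. Gbp5, a GTPase, had 2.36 and 0.22 in con, against 14.8 and 23 in ICN. Ifit1 and Isg15, named after their values were seen, had 35.8 and 60.7 in con 1 and 4.91 and 17.2 in con 2, and they reached 176 and 213 in ICN 1 and 369 and 774 in ICN 2. For Oasl1, Gbp5, Ifit1 and Isg15, con 2 was the lowest of the 4 libraries and the difference was the larger in replicate 2.

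The genes higher in both replicates include runs of neighbours. With gaps of up to 100000 bases, 39 of the 255 with coordinates lay in 9 runs of 3 or more. The run with the most members, 7, lies on chromosome 19 from 34492316 to 34662981 (mm10) and holds Ifit2, Ifit3, Ifit3b and Ifit1 with Ifit1bl1, Ifit1bl2 and the lysosomal lipase gene Lipa. A run on chromosome 3 from 142496934 to 142638008 holds Gbp5, Gbp3, Gbp2b and Gbp2. Both families are rows of similar genes, so reads may be shared between copies. A further 4 runs were histone gene clusters.

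Promoter letters are shown for 2 of the strongest members, since they hold the element through which interferon signalling is known to act. Sequences are the 250 bases before the transcript start that the promoter table uses, which for Ifit3 and for Avil lies inside the gene's outermost bounds, from RefSeq on GRCm38.p6 (mm10), read 5′ to 3′ on the gene's strand. For Cxcl10 (chr5:92348890-92349139, minus strand) capitals mark a match to the interferon-stimulated response element (GAAA, any 2 bases, GAAA) and then a match to an NF-kB site (GGGA, any 2 bases, TTCC). For Ifit3 (chr19:34583279-34583528, plus strand) capitals mark 2 matches to the response element on the other strand.
Cxcl10: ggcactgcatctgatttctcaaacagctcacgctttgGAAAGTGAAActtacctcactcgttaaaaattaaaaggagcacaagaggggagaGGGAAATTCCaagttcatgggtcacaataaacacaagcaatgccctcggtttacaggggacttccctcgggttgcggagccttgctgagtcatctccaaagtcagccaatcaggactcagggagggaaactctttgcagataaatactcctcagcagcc
Ifit3: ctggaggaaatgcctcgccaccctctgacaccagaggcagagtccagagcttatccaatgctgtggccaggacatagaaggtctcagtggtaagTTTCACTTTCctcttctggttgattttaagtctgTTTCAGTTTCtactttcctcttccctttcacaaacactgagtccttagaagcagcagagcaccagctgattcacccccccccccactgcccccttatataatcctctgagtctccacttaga

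Searched on both strands, the letters of the response element were present in 2.98% of 32851 promoter windows of this length. Of the 43 tested interferon list genes with a promoter entry, 17 held it (39.5%), against 22 of 184 genes higher in both replicates (12%), 37 of 523 genes higher in replicate 2 only (7.07%), 1 of 58 higher in replicate 1 only (1.72%) and 293 of all 8735 tested genes with an entry (3.35%). The NF-kB letters were in 1.21% of windows and in 7 of the 184 (3.8%). The AP-1 letters TGANTCA were in 6.75% of windows, in 30 of the 184 (16.3%) and in 5.51% of all tested genes. TGGGAA, the letters RBPJ is known to bind, is short and was in 21.6% of windows, and 53 of the 184 held it (28.8%, against 23.5% of all tested genes). These are matches of letters and not binding sites.

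NF-kB genes stood higher in both replicates, and their brakes most evenly. Of 23 tested members 21 were above 0 in both replicates and 9 were at least 2-fold higher in both, with medians of 0.86 and 1.82. Nfkbia, the inhibitor IkB-alpha that NF-kB itself switches on, had an FPKM of 35.9 and 11.0 in con, against 139 and 83.1 in ICN. Nfkbie, another inhibitor, had 6.67 and 5.63 in con, against 21.4 and 15.9 in ICN. Icam1, an adhesion molecule and NF-kB target, had 17.9 and 15.1 in con, against 65.7 and 99.3 in ICN, and Tnip1, a ubiquitin-binding brake, had 32.1 and 24.7 in con, against 59.9 and 62.3 in ICN. Of the 8 inhibitors 4 were at least 2-fold higher in both replicates, with medians of 1.06 and 1.32, while the 5 subunits had 0.47 and 1.82. No member passed the model (limma, lowest adjusted p 0.113).

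Chemokines and cytokines had the larger median in replicate 1. The medians were 1.24 in replicate 1 and 0.44 in replicate 2, and of 18 members 5 were at least 2-fold higher in both and 5 in replicate 1 only. Ccl5, which recruits T cells and monocytes, stood at 198 and 18.1 in con, against 725 and 1608 in ICN. Ccl4 stood at 1.06 and 0.38 in con, against 25.1 and 6.4 in ICN. Il6 stood at 4.21 and 2.06 in con, against 11.7 and 8.22 in ICN, and Ltb, a lymphotoxin subunit, at 59.9 and 11.4 in con, against 157 and 34.5 in ICN. Con 1 was above con 2 for 17 of the 18 members. Ltb in con 1 lay above Ltb in ICN 2, so that the order of groups held only within replicates.

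AP-1 and immediate-early genes, the first to answer growth factors and stress, had medians of 0.77 and 0.93, and 7 of 26 were at least 2-fold higher in both replicates. The AP-1 subunit Jun stood at 2.02 and 1.92 in con, against 18.2 and 34.2 in ICN. Ier5, an early response gene, stood at 13.4 and 12.8 in con, against 32.3 and 69.2 in ICN. Nr4a1, an orphan nuclear receptor, was near 0 in con (0.04 and 0.02) and at 1.61 and 0.67 in ICN. Of the 9 MAP kinase phosphatases 2 were higher in both: Dusp1, the member of the list that passed, and Dusp5 at 17.5 and 17.6 in con, against 78.0 and 37.8 in ICN.

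Of 20 canonical Notch target genes 10 were tested, and 2 were at least 2-fold higher in both replicates. Hes1, Hes5, Hey1, Hey2, Heyl, Nrarp, Notch3, Dll4, Gata3 and Trib2 were not tested, none with an FPKM above 0.88 in any library with a value. Hey1 and Heyl had values in replicate 1 only, and Hey2 in replicate 2 only. Il2ra, which makes CD25 of the interleukin-2 receptor, stood at 110 and 28.8 in con, against 373 and 273 in ICN. Ptcra, the pre-T receptor alpha chain, stood at 1.47 and 1.37 in con, against 4.12 and 4.95 in ICN, and its CTdel values of 1.52 and 0.98 lay near con. Dtx1, a Notch-binding ubiquitin ligase, stood at 0 and 0.05 in con, against 2.86 and 1.02 in ICN, Asb2 at 0 in both con libraries and 1 and 0.64 in ICN, and Tcf7, a T-lineage factor, at 0.10 in both con libraries and 1.02 and 0.59 in ICN. Each of these 5 had both ICN libraries above both con libraries. Apart from Ptcra, they were also above con in CTdel. There Il2ra stood at 413 and 762, Dtx1 at 15.5 and 8.71, Asb2 at 7.86 and 15.3, and Tcf7 at 0.96 and 1.01.

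The other 5 tested targets were not higher in both replicates. Myc, which Notch1 drives in T-cell leukaemia, stood at 198 and 194 in con, against 113 and 89.9 in ICN, and the survival gene Bcl2 at 46.3 and 46.9 in con, against 26.1 and 13.4 in ICN. Hes6 stood at 33.4 and 42.7 in con, against 34.9 and 29.8 in ICN, Ccnd3 at 64.1 and 108, against 94.2 and 65.9, and Igf1r at 20.3 and 10.0, against 12.7 and 10.4. Thus Hes6, Ccnd3 and Igf1r had different signs in the 2 replicates. No target passed the model (limma, lowest adjusted p 0.169, for Ptcra).

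Ptcra was the 1 target of the 9 with a promoter entry whose 250 bases held the RBPJ letters (11.1%, against 23.5% of all tested genes). The window lies on the minus strand (chr17:46763713-46763962), and capitals mark the 2 matches to TGGGAA.
Ptcra: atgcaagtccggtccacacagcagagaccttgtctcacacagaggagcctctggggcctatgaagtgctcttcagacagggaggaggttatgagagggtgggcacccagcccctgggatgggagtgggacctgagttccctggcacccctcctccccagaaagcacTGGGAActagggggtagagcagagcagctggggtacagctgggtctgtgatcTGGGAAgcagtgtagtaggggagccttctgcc

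Of 41 tested members of the Notch pathway 19 were above 0 in both replicates and 8 below 0 in both (29.8% and 26.7% of all tested genes). The medians were 0.04 and 0.30. In replicate 2, 6 of the 41 were at least 2-fold higher, Notch1 among them, and 4 lower (11.4% and 6.3% of all tested genes), against 2 and 1 in replicate 1. The 4 lower ones were among the 5 fringe and glycosylation genes, whose medians were -0.17 and -1.09. Of the 8 genes of the nuclear complex 2 were higher in replicate 2 only, and so were 2 of 7 corepressors (6.19% of all tested genes). Of 9 genes of receptor processing 7 were above 0 in both replicates, with medians of 0.23 and 0.30 over the 9. The other 2, Psen2 among them, were below 0 in both. Lfng, the fringe enzyme that tunes the response of Notch to its ligands, stood at 32.0 and 34.4 in con, against 15.9 and 14.1 in ICN, and Psen2, a catalytic part of the protease that frees the intracellular domain, at 33.2 and 22.5 in con, against 18.9 and 14.7 in ICN. Numbl, a relative of the Notch inhibitor Numb, stood at 1.36 and 3 in con, against 3.38 and 5.12 in ICN. Snw1, which binds the nuclear complex, stood at 64.2 and 53.6 in con, against 82.4 and 108 in ICN. The largest of their differences was -1.23, for Lfng in replicate 2, and none passed (limma, adjusted p 0.243 to 0.294).

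Lysosomal and antigen-presentation genes kept one direction in nearly all members. Of 19 lysosome and autophagy genes 18 were above 0 in both replicates and 5 were at least 2-fold higher in both, Park2 among them, with medians of 0.49 and 1.12. Over all tested genes the shares were 29.8% and 2.32%. Slc11a1, a metal pump of phagocyte vacuoles, stood at 0.50 and 0.80 in con, against 7.66 and 13.9 in ICN. Cd68 stood at 8.32 and 4.46 in con, against 21.6 and 11.9 in ICN, and the protease Ctsb at 51.0 and 36.5 in con, against 104 and 99.2 in ICN. Of 13 MHC class I and antigen-processing genes 13 were above 0 in both replicates, with medians of 0.32 and 1.73, 1 at least 2-fold higher in both and 6 in replicate 2 only. The matching shares of all tested genes were 29.8%, 2.32% and 6.19%. Tapbp, which loads peptides onto class I molecules, stood at 43.7 and 26.6 in con, against 102 and 154 in ICN, and B2m, the light chain of class I, at 930 and 332 in con, against 1276 and 1358 in ICN.

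Targets of p53, the factor that answers DNA damage, were higher chiefly in replicate 2. The medians over 20 members were 0.26 and 2.03, with 3 at least 2-fold higher in both replicates and 9 in replicate 2 only. Over all tested genes those shares were 2.32% and 6.19%. Fas, a death receptor, stood at 7.54 and 3.81 in con, against 17.5 and 48.0 in ICN, and Trp53inp1 at 15.8 and 7.33 in con, against 33.0 and 113 in ICN. Mdm2, which marks p53 for destruction, stood at 55.5 and 32.9 in con, against 88.2 and 224 in ICN. Among 22 apoptosis regulators 3 were at least 2-fold higher in both (2.32% of all tested genes). They were Tnfrsf23, a decoy receptor (0.32 and 0.13 in con, 6.07 and 2.71 in ICN), Casp1 (16.6 and 8.98 in con, 35.4 and 29.9 in ICN) and the death factor Bcl2l11 (3.95 and 3.98 in con, 10.6 and 34.8 in ICN).

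Lineage lists other than the B list were described in the same way. In the myeloid list 13 of 18 were above 0 in both replicates (29.8% of all tested genes), with medians of 0.82 and 0.45. In 8 both ICN libraries lay above both con libraries (22.7% of all tested genes). Its summed FPKM was 406 and 307 in con, against 687 and 502 in ICN. Spi1, the myeloid and B-lineage factor PU.1, stood at 39.1 and 47.7 in con, against 155 and 139 in ICN, and Tyrobp, a signalling adaptor, at 52.3 and 20.6 in con, against 124 and 40.7 in ICN. Tyrobp in con 1 thus lay above Tyrobp in ICN 2. The defining myeloid genes Mpo, Elane and Lyz1 were under an FPKM of 1 in each library. Ctsg and Cd14, with values in replicate 1 only, were under 1 there. In the erythroid and megakaryocyte list 10 of 13 were below 0 in both replicates, with medians of -0.70 and -0.98, and in 10 both ICN libraries lay below both con libraries (19.6% of all tested genes). Klf1, the erythroid factor, stood at 10.8 and 16.4 in con, against 4.35 and 3.26 in ICN, Zfpm1, a partner of GATA factors, at 115 and 218 in con, against 58.5 and 63.9 in ICN, and the thrombin receptor F2r at 698 and 387 in con, against 276 and 219 in ICN. No member of the erythroid list passed (limma, lowest adjusted p 0.153), and of the myeloid list Ptafr alone did.

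Of 15 mast cell and basophil genes 6 were tested, and they did not go one way. Gata2 and Cpa3 were at least 2-fold lower in both replicates, Cpa3 at 26.7 and 6.14 in con, against 10.1 and 2.34 in ICN. Hdc, the enzyme that makes histamine, was higher in both, at 0.53 and 0.39 in con, against 2.92 and 7.45 in ICN. Among 5 tested cytotoxic and NK genes, Gzmb and Serpinb6b were higher in both, Serpinb6b at 1.64 and 0.98 in con, against 7.56 and 6.91 in ICN. Prf1, Gzma, Ncr1 and Tbx21, which mark cytotoxic cells, were not tested, and the highest of those listed with a value was 0.18. Of 15 T-lineage genes 2 were tested, and the highest of the tested, Lat, stood at 5.96 and 4.33 in con, against 10.5 and 11.8 in ICN. In a bulk sample, fewer cells of a type and less RNA per cell cannot be told apart.

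Replication-dependent histone genes, whose RNA ends in a stem-loop and largely lacks a poly-A tail, were higher in ICN in both replicates. Of 17 tested 15 were above 0 in both and 5 were at least 2-fold higher in both, with medians of 0.84 and 1.35. Hist1h1c, a linker histone, stood at 3.95 and 9.38 in con, against 37.5 and 49.4 in ICN, and Hist1h2bc at 3.71 and 4.68 in con, against 20.4 and 72.9 in ICN. The list summed to 29.9 and 50.4 in con, against 112 and 228 in ICN. Near-identical copies share reads, so single histone genes are uncertain.

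DNA replication genes mostly had opposite signs in the 2 replicates. Of 23 tested members 22 were above 0 in replicate 1 and below 0 in replicate 2 (21.7% of all tested genes), and the medians were 0.67 and -0.88. The median member stood at an FPKM of 21.4 in con 1, 42.1 in ICN 1, 50.6 in con 2 and 29.3 in ICN 2. Con 1 was below con 2 for 23 of 23 members, and for 10 both ICN libraries lay between the con libraries (14.7% of all tested genes). Rrm2, a subunit of the enzyme that makes deoxynucleotides, stood at 69.1 and 127 in con, against 97.2 and 46.3 in ICN. The polymerase subunit Pole stood at 12.1 and 19.1 in con, against 14.2 and 10.2 in ICN. Rfc3, a clamp loader, was above 0 in both replicates, at 16.2 and 37.7 in con, against 43.0 and 40.6 in ICN.

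Mitotic genes kept their direction but not their size. Of 22 members 19 were below 0 in both replicates, with medians of -0.28 and -0.98, and 8 were at least 2-fold lower in replicate 2 only. The shares over all tested genes were 26.7% and 4.79%. Ube2c, which feeds the anaphase-promoting complex, stood at 157 and 179 in con, against 82.7 and 81.2 in ICN, and the kinase Plk1 at 63.5 and 95.5 in con, against 37.6 and 55.4 in ICN. Ccnb1, the mitotic cyclin B, stood at 67.3 and 93.8 in con, against 55.2 and 35.9 in ICN. Cdk4, a kinase of G1, stood at 259 and 303 in con, against 204 and 135 in ICN. No member of the mitotic list passed (limma, lowest adjusted p 0.176).

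Genes of cell growth were lower chiefly in replicate 2. Ribosome biogenesis had medians of -0.02 and -0.97, with 12 of 30 at least 2-fold lower in replicate 2 only, and Tcof1, a nucleolar factor, stood at 54.6 and 62.3 in con, against 32.7 and 24.9 in ICN. Cholesterol and fatty acid synthesis had medians of 0.05 and -0.85, with 8 of 26 lower in replicate 2 only, and Fasn, fatty acid synthase, stood at 64.2 and 111 in con, against 63.4 and 43.0 in ICN. Heat shock proteins had 0.12 and -1.04, with 5 of 10 lower in replicate 2 only, and the chaperonin Hspd1 stood at 209 and 240 in con, against 176 and 86.2 in ICN. Con 2 was above con 1 in 27 of 30, 23 of 26 and 10 of 10 members of these lists. In ICN 2 each list summed to less than in the other 3 libraries of the comparison. Cytosolic ribosomal proteins (medians -0.29 and -0.02) and the respiratory chain (0.09 and -0.33) held no gene moved 2-fold in both replicates, in 28 and 26 tested members, a count near the background (2.32% and 0.308%).

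**Figure D4:**
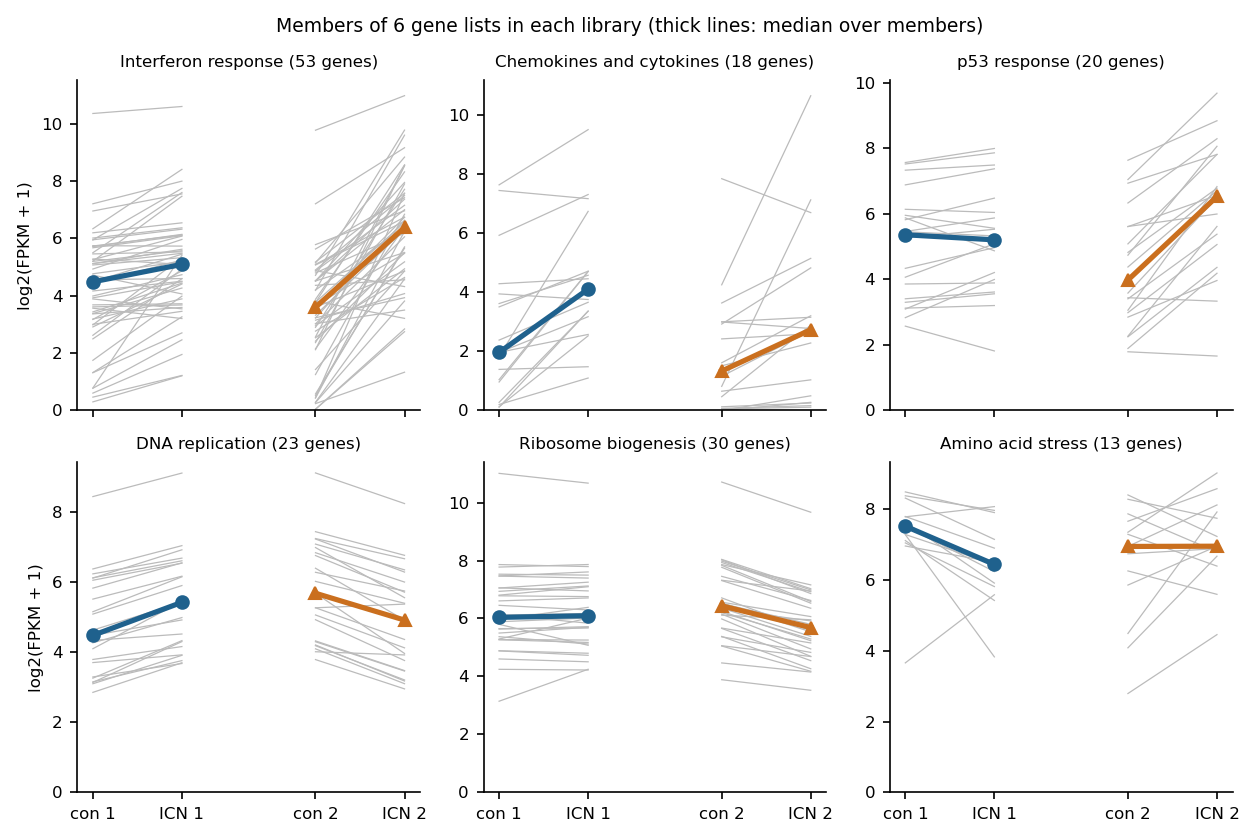
Level of each tested member (thin grey lines join con to ICN within a replicate) and the median over members (thick lines, blue for replicate 1 and orange for replicate 2) for 6 lists, on the log2(FPKM + 1) scale. The DNA replication median lies higher in ICN 1 than in con 1 and lower in ICN 2 than in con 2, and the interferon median lies higher in ICN in both replicates, by more in replicate 2.

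Glycolysis and hypoxia genes were lower in both replicates by small amounts. Of 22 members 15 were below 0 in both, with medians of -0.46 and -0.28, and 1 (Hk3) was at least 2-fold lower in both. The shares over all tested genes were 26.7% and 0.308%. Hk2, the first enzyme of glycolysis in growing cells, stood at 52.5 and 28.0 in con, against 25.9 and 12.6 in ICN, Slc2a1, the glucose transporter, at 70.7 and 31.9 in con, against 36.9 and 22 in ICN, and Pgk1 at 557 and 423 in con, against 373 and 279 in ICN. None passed (limma, lowest adjusted p 0.12).

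Amino acid stress genes, which the factor ATF4 switches on when amino acids run short, split by table and by member. The medians over 13 members were -0.89 and 0.92, and 6 members were below 0 in replicate 1 and above 0 in replicate 2 (21.2% of all tested genes). Con 1 was above con 2 for 11 of 13. Trib3, a pseudokinase that ATF4 induces, stood at 155 in con 1 and 13.2 in ICN 1, but at 16.0 in con 2 and 101 in ICN 2, with 13.6 and 17.2 in the CTdel libraries. The 2 con libraries thus differed more from each other than con 2 did from CTdel. The cystine transporter Slc7a11 was higher in both replicates (11.7 and 5.94 in con, 47.1 and 21.0 in ICN). Psat1, of serine synthesis, was lower in both, with 318 and 339 in con, against 141 and 150 in ICN, and so were Shmt2, with differences of -0.89 and -1.08, and the leucine transporter Slc7a5, with -1.28 and -0.90.

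Of the 53 genes with opposite directions, the 39 lower in replicate 1 and higher in replicate 2 stood at a median of 20.3 in con 1 and 2.69 in con 2, and at 6.05 and 14.6 in ICN. Con 1 was above con 2 in 39 of 39, a direction that the choice favours. Avil, an actin-binding protein, stood at 44.8 and 1.05 in con, against 5.18 and 13.0 in ICN, and Cox6a2, a muscle form of a cytochrome oxidase subunit, at 20.3 and 0.30 in con, against 3.05 and 6.36 in ICN. Rps27rt went the other way, at 0 and 11.7 in con, against 53.7 and 0 in ICN. It is a near copy of the ribosomal protein gene Rps27, and reads may be split between them. Of the 14 genes of that direction 5 are protein-coding in RefSeq.

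The promoter of Avil is shown because it holds the letters TGATGNAA, the core of the C/EBP-ATF response element through which ATF4 is known to act (chr10:127000459-127000708, plus strand, match in capitals). These letters were in 3.45% of all windows, in 4 of 20 list members of amino acid and unfolded protein stress with an entry (20%), in 4 of 25 genes lower in replicate 1 and higher in replicate 2 (16%), in 7 of 64 lower in replicate 1 only (10.9%) and in 2.51% of all tested genes. Trib3, Psat1, Shmt2 and the stress factor gene Ddit3 held no match, while Slc7a11, higher in both replicates, held 2. What part the element plays was not tested.
Avil: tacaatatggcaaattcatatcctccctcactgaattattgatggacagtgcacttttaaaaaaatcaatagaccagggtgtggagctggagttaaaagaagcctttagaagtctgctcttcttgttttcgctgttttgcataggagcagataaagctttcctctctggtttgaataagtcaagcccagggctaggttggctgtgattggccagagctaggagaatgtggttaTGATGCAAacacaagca

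Of the 102 genes higher in replicate 1 only, 6 were named for the largest differences. Ccl3, a chemokine, stood at 0.95 in con 1 and 25.0 in ICN 1, and at 0.57 and 1.05 in replicate 2. Clec4n, the fungal receptor dectin-2, stood at 0.09 and 11.9 in replicate 1 and 0.22 and 0.44 in replicate 2. Il1b stood at 0.08 and 9.31, then at 0 and 0.41, and Ccl17 at 0.21 and 9.25, then at 0 and 0.21. Treml4, a myeloid receptor, stood at 0 and 7.26, then at 0 and 0.28. For each of these 5 the con libraries were alike and low, and ICN 1 alone was high among the 4. In the CTdel libraries the same 5 stood higher in replicate 1 as well, for example Ccl17 at 146 and 7.28 and Treml4 at 67.9 and 17.3. Rn7s1, a structural RNA of the signal recognition particle, stood at 4.28 and 34.7 in replicate 1 and 16.3 and 15.6 in replicate 2. Of the 102 genes 27 are small structured RNAs in RefSeq.

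Among the genes lower in replicate 1 only, con 1 was above con 2 in 83 of 85, a direction that the choice favours. Fcgr1, an antibody receptor, stood at 20.0 in con 1 and 5.61 in con 2, beside 3.21 and 3.85 in ICN. Fzd4, a Wnt receptor, stood at 21.7 in con 1 and at 3.70, 4.28 and 3.46 in the other 3 libraries. Slc1a4, a transporter of small neutral amino acids, stood at 29.8 in con 1 and 14.5 in con 2, beside 6.80 and 12.5 in ICN. In Tmem254b the odd library was ICN 1, at 0.84, against 16.6 and 19.9 in con and 14.2 in ICN 2. It has near-identical copies beside it, so its value is uncertain.

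Genes higher in replicate 2 only combined a low con 2 with a high ICN 2. Of 684, con 1 was above con 2 in 625 and ICN 2 above ICN 1 in 642, and the medians were 11.3 in con 1, 11.8 in ICN 1, 6.48 in con 2 and 19.8 in ICN 2. Both con 2 and ICN 2 enter the difference that chose them. Usp18, which removes the modifier ISG15 and damps interferon signalling, stood at 35.7 and 46.5 in replicate 1 and at 12.6 and 377 in replicate 2. Isg20, an antiviral nuclease, stood at 52.2 and 68.5, then at 13.7 and 318. Ddx58, the RNA sensor RIG-I, stood at 50.0 and 67.3, then at 21.8 and 246. Ddit3, the stress factor CHOP, stood at 124 and 89.7, then at 21.5 and 242, Bbc3, the p53 target PUMA, at 69.4 and 64.9, then at 25.7 and 266, and Ephx2, an epoxide hydrolase, at 2.32 and 2.19, then at 0.56 and 15.4.

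The 529 genes lower in replicate 2 only were the mirror image, with con 2 above con 1 in 502, a direction that the choice favours. Srm, which makes spermidine, stood at 103 and 90.6 in replicate 1 and 268 and 58.7 in replicate 2. Sdf2l1, a chaperone partner of the endoplasmic reticulum, stood at 48.3 and 54.8, then at 107 and 25.5, Sapcd2 at 8.63 and 6.73, then at 21.7 and 4.24, and the organic cation transporter Slc22a3 at 2.97 and 2.46, then at 6.85 and 0.70. In each of these 4 genes ICN 1 lay between ICN 2 and con 2, an order that the choice also favours. For none of the named genes moved in 1 table only did the change over both tables pass (limma, adjusted p 0.28 to 0.434).

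**Figure D5:**
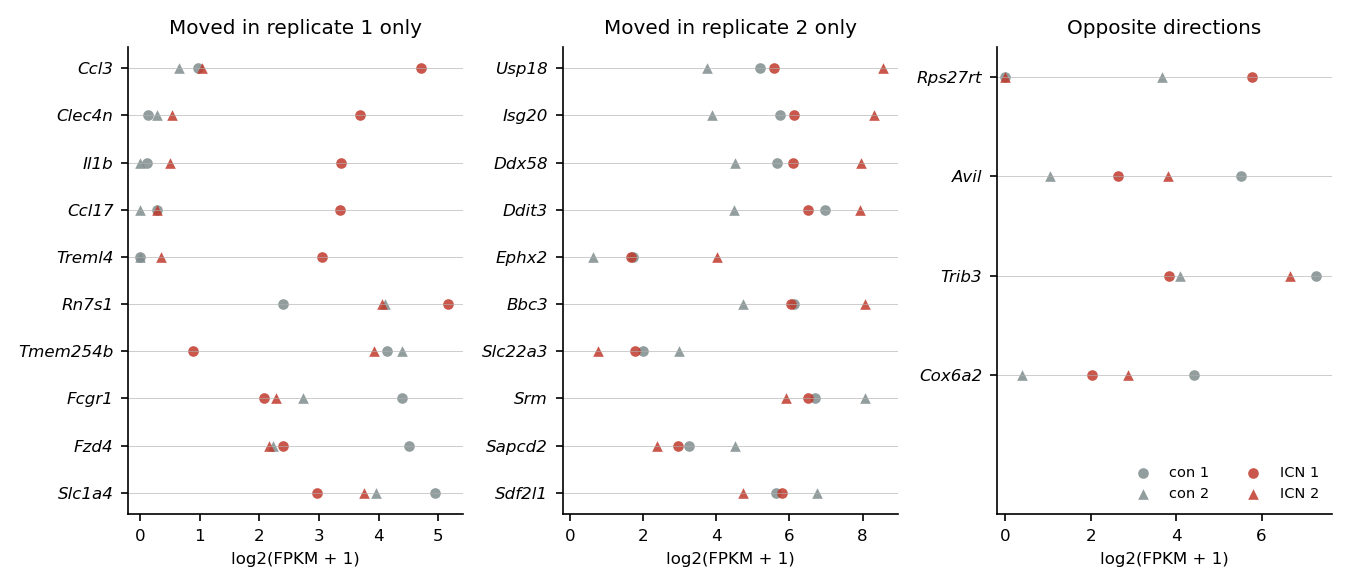
Level of named genes that moved in replicate 1 only, in replicate 2 only, or in opposite directions, in the con (grey) and ICN (red) libraries, with circles for replicate 1 and triangles for replicate 2, on the log2(FPKM + 1) scale. For Fzd4 the con 1 circle stands apart from the other 3 points, and for Usp18 the triangles of replicate 2 enclose both circles.

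Receptor and survival genes of the interleukin-3 pathway, on which these cells depend, moved little on the whole. Of 17 tested members 8 were above 0 in both replicates and 4 below 0 in both (29.8% and 26.7% of all tested genes). The medians were 0.08 and 0.36. Jak2, the kinase of the interleukin-3 receptor, stood at 20.3 and 15.2 in con, against 48.9 and 34.1 in ICN, and Socs1, a brake on that kinase, at 16.7 and 16.1 in con, against 9.92 and 8.2 in ICN. Pim2, a survival kinase, stood at 71.3 and 15.7 in con, against 13.2 and 7.80 in ICN. Among 16 integrins and homing receptors Itgax and Itga4 were at least 2-fold higher in both replicates, Itga4 at 63.1 and 42.0 in con, against 195 and 100 in ICN. Of 14 genes of DNA methylation and chromatin none was moved 2-fold in both, a count near the background (2.32% higher and 0.308% lower over all tested genes). Setd2, a histone methyltransferase, stood at 18.5 in both con libraries and 30.0 and 29.0 in ICN. In the MYC family and MAX network Mxd1, an antagonist of MYC, stood at 3.17 and 2.02 in con, against 8.83 and 21.1 in ICN, beside the lower Mycn.

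Some genes stood in 1 deposited table only and could not be compared across replicates. Of 1078 such genes in replicate 1, 77 reached an FPKM of 1 and 25 were at least 2-fold higher and 22 lower in ICN. Of 1069 in replicate 2, 59 reached an FPKM of 1, and 24 were higher and 12 lower.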

How the data were processed

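Libraries for the 6 samples came from an mRNA kit, MGIEasy, per the labels' protocols. Tools named in the submitters' processing notes are RSEM, Bowtie2 and HISAT2, and the named builds are mm10 and hg19, without version or role. The authors deposited FPKM values per gene, 1 table per replicate number, per the file headers, with 17877 and 17868 genes. Symbols that had become dates (26) were restored by Gene ID. Coordinates came from RefSeq for GRCm38.p6 (mm10), which held 18898 of 18946 Gene IDs.

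Values were moved to log2(FPKM + 1), and each difference was taken inside 1 table. Genes present in both, and reaching an FPKM of 1 in 2 or more libraries, entered limma 3.58.1 (R 4.3.3): group and table as terms, 6 libraries, an intensity trend, 2-sided p, Benjamini-Hochberg over 11050 genes, 2 residual degrees of freedom. When tested on simulated data for ICN against con the model found 44.5% of genes given a change of 2 and 77% of genes given 3, on the log2 scale. Reads per library are unknown, so no counting interval is given. The tables were normalized separately, which limits levels set across them.

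The groups compared, the gene lists and the rule for named genes were chosen with earlier results of these data known. Named were Notch1, called genes, the 14 genes highest in both replicates and 10 lowest by their smaller difference, 6 higher and 4 lower per table in 1 table only, 4 opposite, the Notch targets tested, and up to 5 members of each list with the smallest p. Others are marked as named after their values were seen, apart from markers, neighbours and threshold examples. Alternatives changed the table term, libraries, pseudocount, filter, scaling and fold threshold.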

Additional observations from a re-analysis of the deposited data

How the results depend on the processing

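The count of calls depended on which libraries gave the spread. Of 4 genes higher and 0 lower in ICN, the model without the replicate block called 3 and 0, with the con and ICN libraries alone 150 and 12, and with no filter on low values 0 and 0 (1804 and 524 at an unadjusted p under 0.05). Leaving out each library gave 11 to 946 higher and 0 to 524 lower genes, the most without ICN replicate 1. A group left with 1 library is assumed to vary like the others. The replicate numbers were shared by table only, and the deviations of same-numbered libraries had a correlation of -0.0988 for con and ICN, 0.326 for con and CTdel and 0.236 for ICN and CTdel. Of the named genes, 2 differed between ICN and CTdel, and 0 did so with a pseudocount of 0.1 or with no filter; leaving out each library gave 2 to 64. A contrast with con and ICN libraries alone has no CTdel value.

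Genes at least 2-fold higher in both replicates numbered 256, and 434 with a pseudocount of 0.1, 624 at 1.5-fold and 40 at 4-fold. Those lower in both numbered 34, and 65 with a pseudocount of 0.1, 55 with quantile normalization, 208 at 1.5-fold and 1 at 4-fold. Those moved in replicate 1 only numbered 187, and 398 at 1.5-fold and 51 at 4-fold, and in replicate 2 only 1213, and 2342 and 177. Those in opposite directions numbered 53, and 92 with a pseudocount of 0.1, 229 at 1.5-fold and 8 at 4-fold. These counts need both replicates and have no value with one left out. Under scaling to a common sum each count stayed within 1.5 times. Quantile normalization moved the median change of all genes to -0.07.

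The sign of the mean median of the 32 lists was kept in 32 under both scalings and the pseudocount of 0.1, in 31 with no filter, in 32 with replicate 2 alone and in 26 with replicate 1 alone. Without 1 library at a time, the change of Hes6 ran from -0.50 to 0.0595, of Igf1r from -0.77 to 0.18 and of Ccnd3 from -0.63 to 0.47 (0.31 without con replicate 2), with reversed signs without ICN replicate 2 (Hes6, Ccnd3), con replicate 1 (Igf1r) and con replicate 2 (Ccnd3). The cause was not tested.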
